A study of Mus musculus with 4 samples.

Results

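Goblet cells are the secretory cells of the colonic epithelium that make and release mucus. The gel-forming mucin Muc2 is the scaffold of this mucus, and Fcgbp, Zg16, Tff3 and Spink4 are smaller or associated proteins that goblet cells secrete. Agr2 is a protein disulfide isomerase of the endoplasmic reticulum that is needed to fold Muc2. Atoh1 is the transcription factor that commits progenitors to the secretory lineage where Notch signalling is low, and Spdef is an ETS factor that acts after it in goblet cell maturation. The levels of these 8 genes, of 30360 genes in the table, are described here over 6155 cells of mouse colonic organoids. They were found by gene symbol, each matched 1 row, and together they took 0.376% of all counted molecules. The symbols were chosen by name and not by their levels.

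The organoids were 3-dimensional cultures in Matrigel grown from the distal colon of wildtype mice and of Tnfr2-/- mice, which lack TNF receptor 2 (encoded by Tnfrsf1b) in the whole body. The mice were 16 weeks old per the labels. After passage 5, tumor necrosis factor (TNF) was given at 20 ng/ml from day 1 to day 6 to 1 culture of each genotype, and 1 culture of each genotype was untreated (vehicle, in another field of the labels). On day 7 the cells of all 4 cultures were separated, apoptotic cells were taken out by Annexin V, and 3' libraries with unique molecular identifiers (UMIs) were made. Each of the 4 groups was 1 culture and 1 library, so a difference between libraries has no replicate check, and the values below come without tests or p-values.

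Below, 4 values in a row run from the untreated and the TNF library of the wildtype to the untreated and the TNF library of Tnfr2-/-. The deposited annotation puts the cells into 7 epithelial and 4 mesenchymal classes, and 35 cells had no class. Epithelial cells numbered 1128, 1163, 1023 and 858, with medians of 30306 to 41057 UMIs per cell. Only 3 cell barcodes occurred in more than 1 library. Levels are CPM of the UMIs summed over the named cells, that is, scaled to a common library total, and brackets hold exact Poisson intervals at 95%, which cover counting error only. Differences are on the scale log2(CPM + 1), as Tnfr2-/- minus wildtype or as TNF minus untreated. A gene was called where the difference was at least 2-fold and the gene reached 20 CPM in at least 1 library of the pair. In sums over many cells, fewer cells of a type and less RNA per cell cannot be told apart, which is why levels within classes follow the levels over all epithelial cells. Tnfrsf1b itself had 4.17, 12.1, 1.82 and 6.89 CPM in epithelial cells. Its 3' tags do not show whether the deleted part is missing, so this level did not check the genotype labels.

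In GENCODE M21 (GRCm38), Muc2 (ENSMUSG00000025515) lies at chr7:141690340-141754693 on the plus strand and Fcgbp (ENSMUSG00000047730) at chr7:28071236-28120862 on the plus strand. Zg16 (ENSMUSG00000049350) lies at chr7:127050156-127087328 on the minus strand, where it overlaps the opposite-strand lincRNA Gm44939, also a row of the table. No source used here says whether strand was used in counting, and Zg16 carries that uncertainty. Tff3 (ENSMUSG00000024029) lies at chr17:31125306-31129646 on the minus strand, Spink4 (ENSMUSG00000028415) at chr4:40920052-40931395 on the plus strand and Agr2 (ENSMUSG00000020581) at chr12:35992907-36004087 on the plus strand. The factors are Atoh1 (ENSMUSG00000073043), a gene of 1 exon at chr6:64729125-64731245 on the plus strand, and Spdef (ENSMUSG00000024215) at chr17:27714352-27728955 on the minus strand.

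The promoters of Muc2 and Fcgbp are shown because the levels of these genes, both secreted mucus proteins, differed between the genotypes in opposite directions in the same class of cells. The letters are the 250 bases before the start in RefSeq (GRCm38.p6), at chr7:141690090-141690339 on the plus strand for Muc2 and chr7:28070986-28071235 on the plus strand for Fcgbp. The bases just after this start were found in 1 GENCODE transcript for Muc2 and in 0 for Fcgbp, so the Fcgbp window is less certain. Capitals mark the E-box CANNTG, the motif that Atoh1 and other basic helix-loop-helix factors bind.
Muc2: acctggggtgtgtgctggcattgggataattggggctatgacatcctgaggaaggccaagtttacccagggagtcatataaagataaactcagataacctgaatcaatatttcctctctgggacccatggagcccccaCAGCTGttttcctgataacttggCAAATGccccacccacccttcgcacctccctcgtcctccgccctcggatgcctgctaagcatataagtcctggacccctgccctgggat
Fcgbp: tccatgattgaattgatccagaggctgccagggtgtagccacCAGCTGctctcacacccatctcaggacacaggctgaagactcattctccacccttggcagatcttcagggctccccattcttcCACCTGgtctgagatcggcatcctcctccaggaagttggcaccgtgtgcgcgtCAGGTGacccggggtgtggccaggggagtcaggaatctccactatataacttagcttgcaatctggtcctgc
The Muc2 window held 2 E-boxes and the Fcgbp window held 3, and each held 1 E-box spelled CAGCTG, which also counts as CANNTG. Of the other members with a promoter in the table, Agr2 had 1 E-box and Atoh1 and Spdef had 0. The table gave promoters for 5 of the 8 members, and those of Zg16, Tff3 and Spink4 were not among them. Over all 32851 promoters of this length, 66.2% held CANNTG and 13.0% held CAGCTG on either strand. CCGGAT, the ETS motif searched, was in none of the 5 windows and in 4.94% of all promoters. CCACG, the 3' end of the endoplasmic reticulum stress element, was likewise in none of the 5 and in 28.3% of all. These matches are letters in a window and were not read as binding.

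Over all epithelial cells, the mucus genes did not move together. Muc2 had 136.7 CPM [133.5 to 140.0] in wildtype untreated, 415.4 [409.2 to 421.6] in wildtype TNF, 29.8 [28.3 to 31.3] in Tnfr2-/- untreated and 24.9 [23.4 to 26.5] in Tnfr2-/- TNF cells. Both Tnfr2-/- libraries lay below both wildtype libraries. The genotype difference of Muc2 was -2.16 untreated and -4.01 with TNF, and its TNF difference was 1.60 in wildtype and -0.25 in Tnfr2-/- cultures. Fcgbp, which binds to the mucin network and carries von Willebrand D domains, had 119.5 CPM [116.6 to 122.6], 244.0 [239.3 to 248.8], 162.8 [159.3 to 166.3] and 216.3 [211.7 to 220.9]. Here the wildtype untreated library was lowest, the 2 TNF libraries were highest and no genotype difference reached 2-fold (0.44 untreated and -0.17 with TNF).

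Zg16, a lectin-like protein that binds bacterial cell walls, had 373.5 CPM [368.2 to 378.9], 328.3 [322.8 to 333.9], 36.9 [35.2 to 38.6] and 16.8 [15.5 to 18.1]. Like Muc2, it was below both wildtype libraries in both Tnfr2-/- libraries, but its TNF difference in wildtype was -0.19 where that of Muc2 was 1.60. Tff3, the trefoil peptide of goblet cells, had 1073 CPM [1064 to 1082], 3221 [3204 to 3238], 1565 [1555 to 1576] and 1827 [1814 to 1840]. Spink4, a Kazal-type protease inhibitor homolog, had 1204 CPM [1195 to 1214], 4013 [3993 to 4032], 690.4 [683.1 to 697.6] and 774.2 [765.6 to 782.9]. For both, the wildtype TNF library stood far above the other 3, and the Tnfr2-/- libraries lay above wildtype untreated for Tff3 and below it for Spink4.

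Agr2 had 1056 CPM [1047 to 1065], 1888 [1875 to 1901], 618.1 [611.2 to 625.0] and 161.7 [157.8 to 165.7]. It was higher with TNF in wildtype (0.84) and lower with TNF in Tnfr2-/- cultures (-1.93), and its genotype difference was -0.77 untreated and -3.54 with TNF. Atoh1 had 4.23 CPM [3.68 to 4.84], 6.55 [5.8 to 7.4], 2.82 [2.38 to 3.33] and 1.11 [0.80 to 1.48], on 44 to 271 UMIs per library. Spdef had 10.95 CPM [10.05 to 11.90], 26.12 [24.58 to 27.72], 10.21 [9.35 to 11.13] and 3.52 [2.96 to 4.15]. Both factors were highest in wildtype TNF and lowest in Tnfr2-/- TNF cells, and the Spdef intervals of the 2 untreated libraries overlapped (difference -0.09). The order of levels was thus wildtype TNF first for 7 of the 8 members, with Zg16 the exception.

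**Figure D1:**
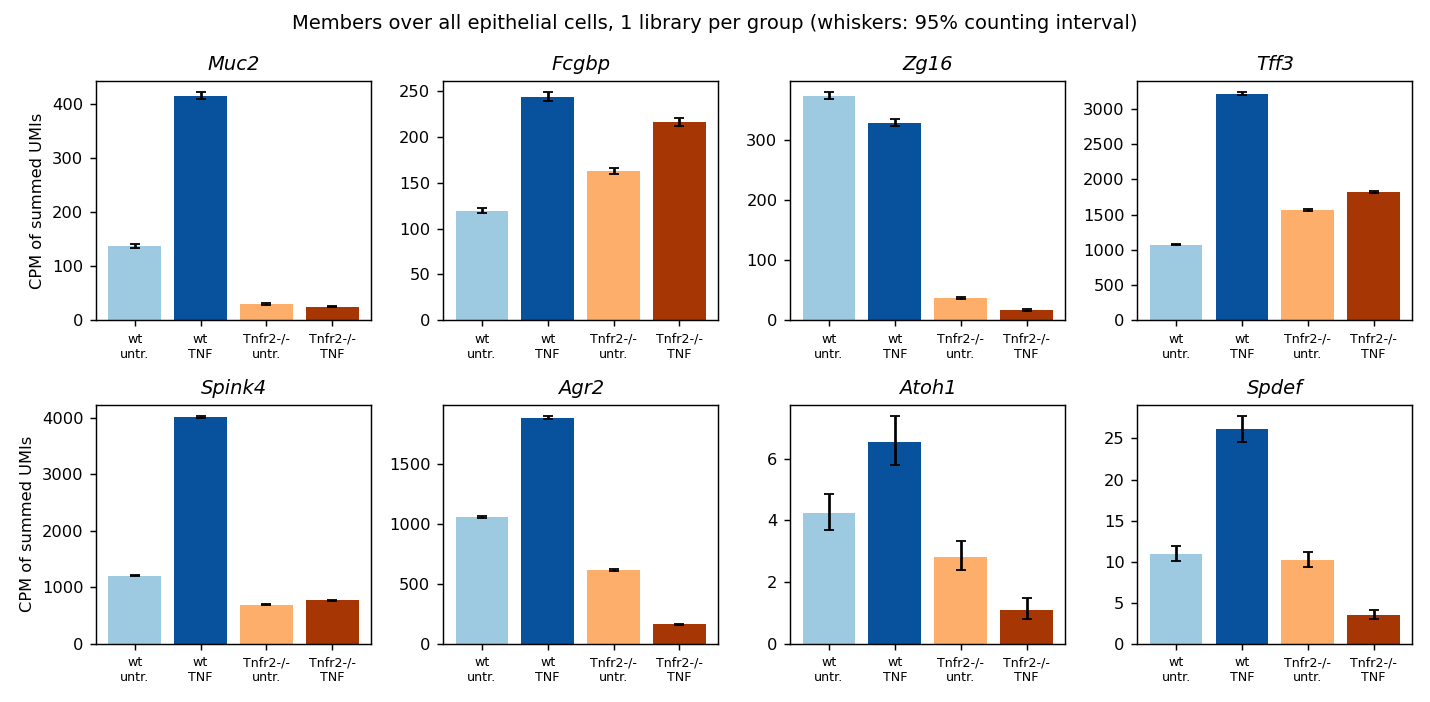
Level of each member (CPM of summed UMIs, linear axes from 0) over all epithelial cells of the 4 libraries, 1 bar per library with its 95% counting interval. Muc2 stood at 136.7 and 415.4 CPM in the wildtype bars against 29.8 and 24.9 in the Tnfr2-/- bars, while Fcgbp stayed between 119.5 and 244.0 CPM.

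Muc2 and Zg16 were called lower in Tnfr2-/- cultures in both treatments, 2 of the 8 members where 1.41% of the 5663 genes tested were. No member was called higher in both treatments, against 1.13% of genes. Untreated alone, the same 2 members were called lower (3.59% of 6021 genes) and 0 higher (2.42%). With TNF, 5 members were called lower in Tnfr2-/- cultures, namely Muc2, Zg16, Spink4, Agr2 and Spdef, where 6.37% of 6073 genes were lower and 5.04% higher. Atoh1 differed by -1.84 there but did not reach 20 CPM in either library. Zg16 and Spdef reached 20 CPM with TNF only in the wildtype library, so they could only be called lower.

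TNF called 0 members in the same direction in both genotypes, where 0.92% of 5545 genes were called higher and 0.0721% lower. In wildtype, 5 members were called higher with TNF, namely Muc2, Fcgbp, Tff3, Spink4 and Spdef, against 2.54% of 5833 genes, and 0 were called lower (1.08%). Of these, Fcgbp and Spdef were near the limit, at 1.02 and 1.18. They fell short of 2-fold when every cell was thinned to 5000 UMIs (0.70 and 0.97). Spdef reached 20 CPM in wildtype only with TNF, so it could only be called higher. In Tnfr2-/- cultures, 2 members were called lower with TNF, namely Zg16 at -1.09 and Agr2. This was against 7.81% of 6143 genes, a share that is large in itself, and 0 members were called higher (5.55%). Zg16 reached 20 CPM in these cultures only untreated, so it could only be called lower. The median difference of all genes tested was 0.11, -0.10, 0.04 and -0.12 for genotype untreated, genotype with TNF, TNF in wildtype and TNF in Tnfr2-/- cultures.

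The make-up of the members' UMIs differed by genotype. A 3' library counts a molecule at its end whatever its length, so these shares were not scaled by length. Muc2 gave 3.44% and 4.10% of the members' epithelial UMIs in wildtype and 0.956% and 0.823% in Tnfr2-/- libraries, and Tff3 gave 27.0% and 31.8% against 50.2% and 60.4%. For 1 Muc2 UMI there were 7.85 and 7.75 Tff3 UMIs in the wildtype libraries and 52.5 and 73.4 in the Tnfr2-/- libraries. Agr2 gave 26.5%, 18.6%, 19.8% and 5.34%.

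The UMIs of the members came mostly from the class named Secretory-Reg4-Spdef-Lyz1 (called the Lyz1 class below) in 3 of the 4 libraries. This class held 81.6%, 86.4% and 87.7% of the epithelial Muc2 UMIs of wildtype untreated, wildtype TNF and Tnfr2-/- untreated cells, but 12.7% in Tnfr2-/- TNF cells, where 80.8% were in the class Progenitor.2. Agr2 was the most widely spread member: in the 2 untreated libraries Progenitor.1 held 35.7% (wildtype) and 45.3% (Tnfr2-/-) of its epithelial UMIs. The classes were clustered by the authors on these same cells and genes, so differences between classes are a description.

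**Figure D2:**
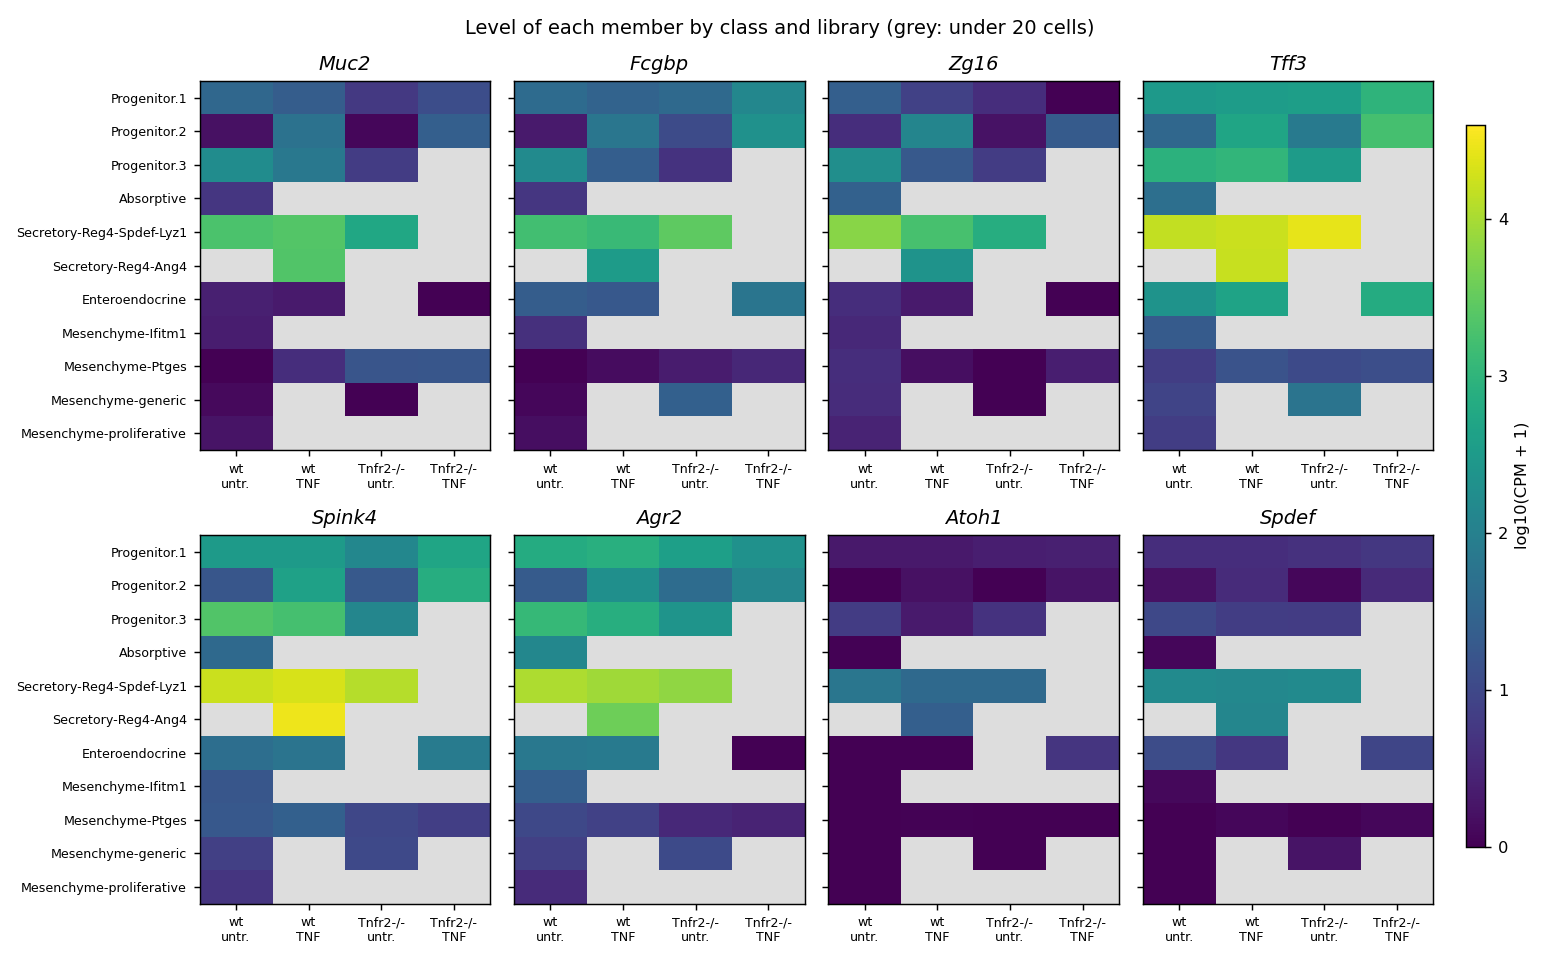
Level of each member on a log10(CPM + 1) colour scale, by class (rows) and library (columns), with grey where a class had under 20 cells. The Lyz1 class and the Ang4 class carry the highest levels of the members, and the Progenitor.2 row is brighter in the 2 TNF columns (Tff3 511 and 1732 CPM) than in the untreated ones (33.4 and 74.4 CPM).

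Within the Lyz1 class, the members that form or fill the mucus differed between the untreated genotypes in both directions. The class had 73, 111, 63 and 8 cells. It took 5.64%, 15.6%, 4.72% and 0.673% of the epithelial UMIs, and with only 8 Tnfr2-/- TNF cells no log2 difference is given for that library. The 10 secretory markers other than members summed to 7315, 3905, 7848 and 1580 CPM in the class, with Fer1l6 at 0 in the last. Reg4, a gene of its name, was at 2605, 1021, 1856 and 523.0 CPM. The 10 mesenchymal markers summed to 3.74 to 25.7 CPM in the class. The 7 enteroendocrine markers summed to 341 CPM in its wildtype untreated cells and to 3.74 to 63.2 CPM in the other libraries, and their part in the results was not tested.

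Muc2 in the class had 1979 CPM [1927 to 2031] in wildtype untreated, 2300 [2263 to 2337] in wildtype TNF, 553.8 [524.3 to 584.4] in Tnfr2-/- untreated and 470.7 [392.1 to 560.4] in Tnfr2-/- TNF cells. The 2 Tnfr2-/- values were close to each other and far below the 2 wildtype values, and the median cell gave the same order (1286, 1479, 371.6 and 279.0 CPM). After thinning to 5000 UMIs per cell, 60 of 72, 95 of 106, 39 of 62 and 5 of 8 cells had a Muc2 UMI, and without thinning 89.0%, 95.5%, 74.6% and 87.5% did. Mesenchymal cells, which should lack Muc2, had it in 0.34% to 8.33% of cells thinned to the same depth. Of the thinned cells of the class with Tff3, 83.3%, 89.6%, 63.9% and 62.5% also had Muc2.

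Fcgbp in the class had 1619 CPM [1573 to 1667], 1326 [1298 to 1355], 2835 [2768 to 2904] and 3355 [3139 to 3581], so that both Tnfr2-/- values lay above both wildtype values. Tff3 had 15249 CPM [15105 to 15393], 17028 [16927 to 17129], 26959 [26751 to 27168] and 32484 [31805 to 33174], in the same order as Fcgbp except for the 2 wildtype libraries. Tff3 and Spink4 were the 2 genes with most UMIs in the wildtype cells of the class, and Tff3 was the first in both Tnfr2-/- libraries. Spink4 had 16844 CPM [16693 to 16995], 21129 [21017 to 21241], 12434 [12293 to 12576] and 14277 [13828 to 14737], with both Tnfr2-/- values below both wildtype values.

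Agr2 in the class had 10640 CPM [10520 to 10760], 8943 [8870 to 9016], 6909 [6804 to 7015] and 3952 [3718 to 4198]. It ranked 3 among all genes by UMIs in both wildtype libraries, 7 in Tnfr2-/- untreated and 40 in Tnfr2-/- TNF cells. Atoh1 had 61.6 CPM [52.9 to 71.5], 35.6 [31.2 to 40.6], 36.4 [29.1 to 44.9] and 33.6 [15.4 to 63.8], with wildtype untreated above the next 2 libraries and the last too imprecise to place. Spdef had 156.1 CPM [141.9 to 171.3], 141.3 [132.3 to 150.8], 158.5 [143.0 to 175.3] and 93.4 [60.4 to 137.9]. Spdef, in contrast to its values over all epithelial cells, did not differ beyond its counting intervals among the first 3 libraries. Of the thinned cells 37, 56, 29 and 5 had Spdef, 17, 20, 11 and 2 had Atoh1, and 9, 10, 4 and 2 had both.

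The untreated genotype difference within the class was -1.84 for Muc2, -3.07 for Zg16, -0.74 for Atoh1, -0.62 for Agr2, -0.44 for Spink4, 0.02 for Spdef, 0.81 for Fcgbp and 0.82 for Tff3. Muc2 and Zg16 were called lower (1.84% of 5707 genes) and 0 members higher (2.58%). For TNF in wildtype the differences within the class were 0.33 for Spink4, 0.22 for Muc2, 0.16 for Tff3, -0.14 for Spdef, -0.25 for Agr2, -0.29 for Fcgbp, -0.77 for Atoh1 and -1.75 for Zg16. Only Zg16 was called lower (0.468% of 5551 genes) and 0 were called higher (2.58%). Together the 8 members took 5.27%, 5.27%, 5.06% and 5.47% of the UMIs of the class, while the shares of Muc2, Zg16, Agr2, Fcgbp and Tff3 within that sum differed as above.

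**Figure D3:**
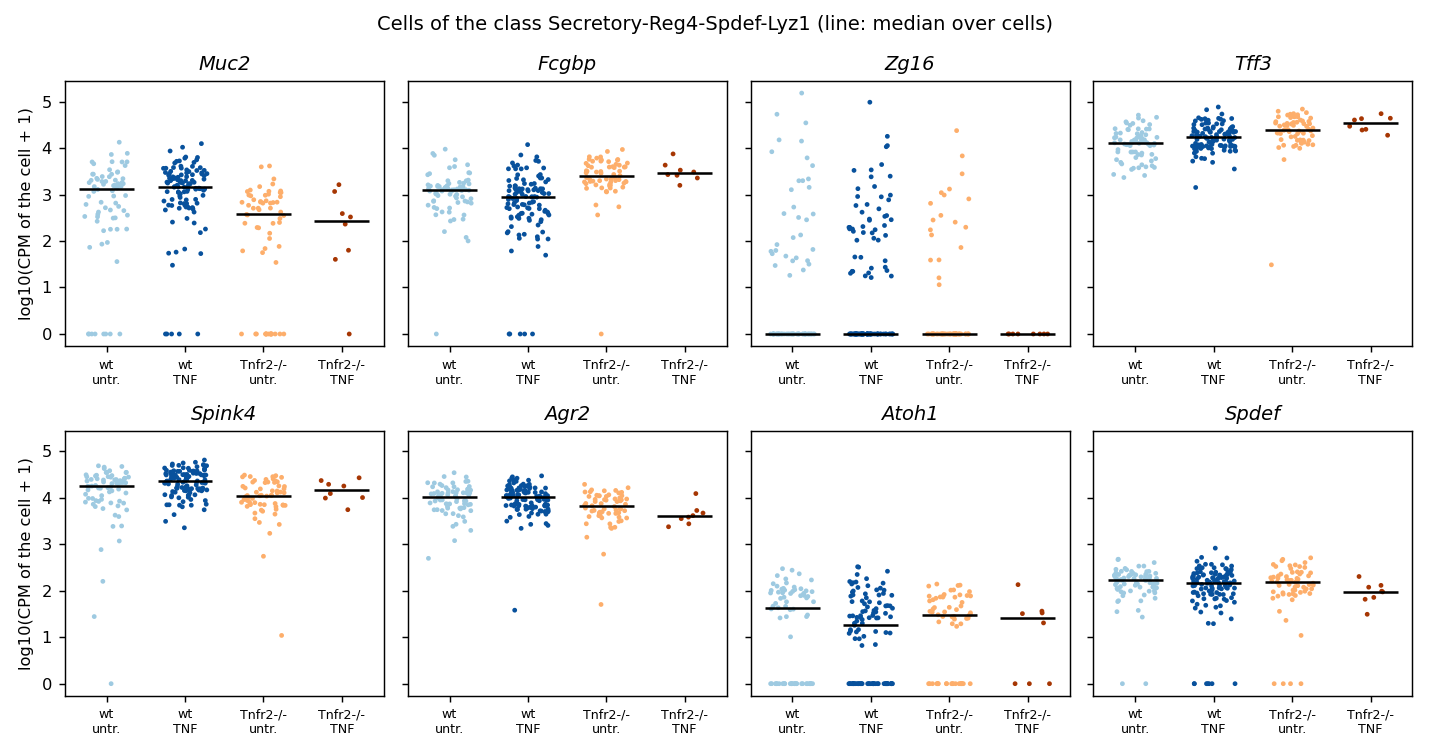
Level of each member in every cell of the Lyz1 class on a log10(CPM + 1) axis, 1 point per cell, with a line at the median of each library. Median Muc2 was 1286, 1479, 371.6 and 279.0 CPM, and median Tff3 13025, 16936, 24933 and 34748 CPM; most cells had no Zg16.

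Zg16 was carried by few cells in every library. In the Lyz1 class it had 6144 CPM [6053 to 6236], 1823 [1790 to 1856] and 731.9 [698.0 to 767.0] in the first 3 libraries and 0 UMIs in the 8 Tnfr2-/- TNF cells, which allows up to 11.2 CPM. Its median cell had 0 UMIs in all 4. A wildtype untreated cell of 75023 UMIs held 11406 Zg16 UMIs, 60.7% of the Zg16 of all epithelial cells of that library. The highest cell held 41.0% in wildtype TNF, 69.7% in Tnfr2-/- untreated and 25.3% in Tnfr2-/- TNF cells, and the 5 highest cells held 87.7%, 81.2%, 85.4% and 81.3%. That first cell also held 1000 Muc2, 3435 Tff3 and 300 Fcgbp UMIs, with 0 of Lyz1 and 4 of Reg4. In the Tnfr2-/- TNF library the 5 highest cells were all of Progenitor.2.

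Without the 5 highest cells of each library, a choice made after seeing the data, Zg16 in the Lyz1 class was at 368.6, 252.3 and 89.2 CPM in the first 3 libraries. The TNF difference within the class then was -0.55 and no longer called, and the wildtype TNF difference over all epithelial cells became 0.43 in place of -0.19. The share of cells is less moved by such cells: 20 of 72, 30 of 106, 12 of 62 and 0 of 8 thinned cells of the class had a Zg16 UMI. The intervals of these shares, 17.9% to 39.6%, 20.0% to 37.9% and 10.4% to 31.4% for the first 3, overlapped.

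The class Secretory-Reg4-Ang4 (Ang4 class) existed only in the wildtype TNF library. Its 246 cells were 21.2% of the epithelial cells but 1.23% of their UMIs. In the remaining 3 libraries it had 0 cells, which allows 0.266%, 0.293% and 0.350% of their epithelial cells. Its cells had a median of 1957.5 UMIs. Spink4 had 30018 CPM [29544 to 30497] there, Tff3 16046 [15700 to 16398], Agr2 3825 [3657 to 3998] and Muc2 2267 [2138 to 2401]. Fcgbp was at 339.5 CPM [290.8 to 394.0] and Zg16 at 225.7 [186.3 to 270.9], both below their level in the Lyz1 class of the same library, while the counting intervals of Muc2 and of Spdef (127.6 [98.4 to 162.6]) overlapped those of that class. The 10 mesenchymal markers, all detected, summed to 2208 CPM in these cells and the 7 enteroendocrine markers to 881 CPM. The enteroendocrine sum came mostly from the 5 cells of the class that were not member-rich in the sense used below, at 68024 CPM against 75.5 CPM in the other 241, while the mesenchymal sum was 496.5 CPM in the 5 and 2228 CPM in the 241. The part of either list in the members' levels was not tested. Because the class had so few UMIs, it held only 6.7% of the library's epithelial Muc2 and 9.2% of its Spink4.

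In Progenitor.1 (546, 335, 647 and 95 cells) the members were far lower than in the Lyz1 class. Muc2 had 34.0 CPM [31.9 to 36.3], 21.7 [19.7 to 24.0], 4.87 [4.19 to 5.64] and 11.3 [8.59 to 14.6], with both Tnfr2-/- values below both wildtype values. The 2 Tnfr2-/- values were also below the Muc2 level of the mesenchymal cells of the same libraries (5.97 and 16.3 CPM), with intervals that overlapped. Few cells carried these sums: 15 of 546 wildtype untreated cells held 87.2% of the Muc2 and 83.1% of the Tff3 UMIs of the class, and 4 of 95 Tnfr2-/- TNF cells held 93.1% of its Muc2. Those are the cells called member-rich below. Fcgbp had 39.8 CPM, 28.04, 36.4 and 132.2, and Tff3 304.1, 347.5, 374.3 and 991.0, so the Tnfr2-/- TNF library was the highest for both. Agr2 had 686.9 CPM, 788.6, 386.1 and 209.1, and unlike Muc2 it was found broadly, in 89.6%, 97.0%, 91.3% and 85.3% of the cells. Zg16 had 24.1, 6.63 and 2.94 CPM and then 0 UMIs, which allows 0.59 CPM.

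Progenitor.2 (62, 273, 233 and 716 cells) was the class in which the members were nearly absent without TNF and present with it, in both genotypes. Muc2 had 0.60 CPM [0.02 to 3.32] on 1 UMI, 52.3 [48.4 to 56.5], 0.20 [0.02 to 0.73] on 2 UMIs and 23.7 [22.1 to 25.4]. Tff3 had 33.4 CPM [25.2 to 43.3], 511.2 [498.8 to 523.8], 74.4 [69.1 to 79.9] and 1732 [1718 to 1746]. Spink4 had 16.1 CPM, 431.7, 18.5 and 719.1, Fcgbp 1.19, 62.4, 10.4 and 207.3, Zg16 2.98, 121.9, 0.71 and 19.8, and Agr2 19.7, 198.5, 40.9 and 127.2. The TNF values lay above both untreated values for all 6. In Tnfr2-/- cultures, the TNF difference was 5.21 for Spink4, 4.52 for Tff3, 4.36 for Muc2, 4.19 for Fcgbp and 1.61 for Agr2. These 5 members were called higher where 0.844% of 5687 genes were, with 0 lower (1.14%). Muc2, Fcgbp and Spink4 reached 20 CPM there only with TNF, so they could only be called higher. Zg16 differed by 3.61 but stayed under 20 CPM. Atoh1 had 0 UMIs in both untreated sums of the class and 8 and 25 UMIs with TNF. The 6 absorptive markers summed to 4080, 2318, 1098 and 953.4 CPM in the class, and their part in these differences was not tested.

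The Progenitor.2 sums with TNF came from few cells. The 10% of cells with most Tff3 held 98.6% of the Tff3 UMIs of the 716 Tnfr2-/- TNF cells, and only 33 of 710 thinned cells had a Muc2 UMI. To describe these cells without the class names, cells with at least 1% of their UMIs from the 8 members were counted (member-rich cells), a limit chosen after seeing the data. The limit is a range and not a cell type, and 31, 35, 27 and 22 epithelial cells lay between 0.5% and 2%. Tff3 and Spink4 supply most of the member UMIs, so that their high levels in member-rich cells follow in part from the way these were picked.

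Member-rich cells were 90, 383, 80 and 65 of the epithelial cells, or 7.98% [6.46 to 9.72], 32.9% [30.2 to 35.7], 7.82% [6.25 to 9.64] and 7.58% [5.90 to 9.55] with exact binomial intervals. The wildtype TNF share stood apart, and the intervals of the other 3 overlapped. Without the Ang4 class it was 15.5%. In wildtype untreated cells, 67 were of the Lyz1 class, 15 of Progenitor.1 and 8 of Progenitor.3, and in wildtype TNF cells 241 were of the Ang4 class and 110 of the Lyz1 class. In Tnfr2-/- untreated cells, 62 were of the Lyz1 class and 14 of Progenitor.1, whereas in Tnfr2-/- TNF cells 53 were of Progenitor.2, 8 of the Lyz1 class and 4 of Progenitor.1. So the Lyz1 class in the Tnfr2-/- TNF library was 0.932% of epithelial cells [0.403 to 1.83], while its member-rich cells were 7.58%. None was absorptive, enteroendocrine or mesenchymal in any library.

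The 53 member-rich cells of Progenitor.2 in the Tnfr2-/- TNF library carried other secretory markers too. The 10 secretory markers other than members summed to 947 CPM in them, with 0 of 10 undetected, and to 47.7 CPM in the other 663 cells of the class. Reg4 was at 353 against 1.5 CPM, Lyz1 at 346 against 1.0 CPM and Bcas1 at 27.7 against 1.1 CPM. Member-rich cells of the Lyz1 class had a sum between 1580 and 8190 CPM in the 4 libraries. The mesenchymal markers summed to 7.86 CPM in the 53 cells. The 7 enteroendocrine markers summed to 525.6 CPM in them and to 115.0 CPM in the other 663, and their part in the members' levels was not tested.

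Within member-rich cells the members kept most of the order seen in the Lyz1 class. Muc2 was at 1536, 2054, 474.1 and 316.0 CPM, Fcgbp at 1290, 1185, 2410 and 2521 CPM and Agr2 at 8240, 7828, 6106 and 1577 CPM. The Tnfr2-/- TNF library thus had the lowest Muc2 and Agr2 and the highest Fcgbp of the 4. Atoh1 was at 40.6, 31.7, 37.3 and 11.96 CPM and Spdef at 114.4, 125.2, 144.7 and 38.2 CPM, so both factors were lower in the member-rich cells of the Tnfr2-/- TNF library than in those of the other 3. These cells held 96.8%, 98.0%, 96.8% and 96.1% of the epithelial Muc2 UMIs but 67.2%, 82.2%, 60.1% and 73.8% of those of Agr2.

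**Figure D4:**
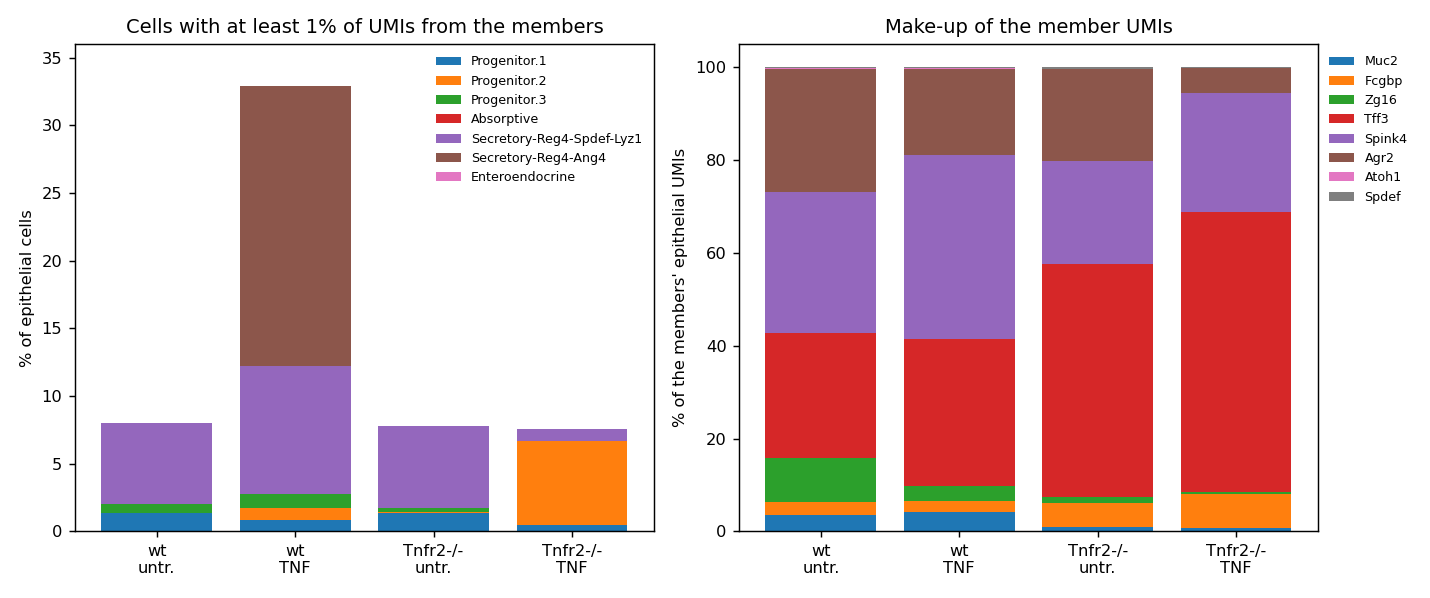
Left, cells with at least 1% of their UMIs from the 8 members as a percentage of the epithelial cells of each library, stacked by class. Right, the make-up of the members' epithelial UMIs in percent; the totals on the left were 7.98, 32.9, 7.82 and 7.58%, and Tff3 made up 27.0, 31.8, 50.2 and 60.4% on the right.

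To separate the class shares from levels within classes, each epithelial CPM difference was split into a part from the classes' shares of UMIs and a part from CPM within the classes, at weights halfway between the libraries of a pair. For genotype without TNF, the within-class part was larger for 7 of 8 members. Muc2 differed by -10.5 CPM through shares and -96.4 through levels, Zg16 by -35.0 and -301.6, Agr2 by -27.8 and -409.9, Spink4 by -129.6 and -384.2, Fcgbp by -17.9 and 61.2 and Tff3 by -171.3 and 663.6. Spdef was the exception, with parts of -0.98 and 0.24 CPM. Of the Muc2 within-class part, -73.8 CPM came from the Lyz1 class and -18.6 from Progenitor.1, and for Agr2 these were -193.3 and -191.6 CPM, so that Progenitor.1 weighed about as much as the Lyz1 class.

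For TNF in wildtype, the share part was larger for 7 of 8 members. It was 245.8 CPM for Muc2 against 32.8 within classes, 155.9 against -31.4 for Fcgbp, 1848.3 against 299.5 for Tff3, 2304.8 against 503.7 for Spink4, 951.6 against -119.6 for Agr2 and 16.6 against -1.5 for Spdef. Most of the Muc2 share part, 213.2 CPM, was due to the Lyz1 class, and 27.9 CPM to the Ang4 class. In every split, a class absent from a library of the pair took its level from the other library. The Ang4 class therefore counted wholly as share by construction. These are shares of UMIs. As a share of cells, the Lyz1 class was 6.47% [5.11 to 8.07] untreated and 9.54% [7.92 to 11.4] with TNF, with overlapping intervals. The Ang4 class was 0% and 21.2% of cells. With shares of cells the Muc2 share part was 558.0 CPM, and how the classes divide it was not computed. For Zg16 the parts were 412.6 and -457.7 CPM and nearly cancelled, with the few high cells of the wildtype untreated library in the second.

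For genotype with TNF, the share part was also larger for 7 of 8 members, all but Zg16 (-101.9 and -209.6 CPM). Muc2 had -221.8 CPM through shares and -168.7 within classes, Agr2 -1095.8 and -630.4 and Spink4 -2877.8 and -360.7. Shares and levels thus had the same sign, but with weights of the first library for shares the Spink4 within-class part was 219.9 CPM. For Fcgbp (-307.1 and 279.4) and Tff3 (-3548.1 and 2154.2) shares and levels had opposite signs. The split set no minimum of cells. The Lyz1 class, with 8 Tnfr2-/- TNF cells, gave -148.9 CPM of the within-class part for Muc2, -406.25 for Agr2 and -557.7 for Spink4. For Tff3 it gave 1258.1 CPM. For TNF in Tnfr2-/- cultures the split was even, with the share part larger for 4 of 8 (Muc2, Agr2, Atoh1 and Spdef). Tff3, for example, had -1031.9 CPM through shares and 1293.5 within classes, 865.4 of it in Progenitor.2.

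The split depended on where the cells were placed. With member-rich cells against the rest in place of the classes, the share part for genotype with TNF was larger for 3 of 8 members (Fcgbp, Tff3 and Spink4) in place of 7. Member-rich cells were picked by the UMIs of these same 8 members, so this balance follows in part from the way they were picked. Muc2 then had -144.5 CPM through shares and -246.0 within, and Agr2 -547.8 and -1178.4. For TNF in wildtype it was still larger for 7 of 8. For TNF in Tnfr2-/- cultures it was larger for 3 (Fcgbp, Tff3 and Spink4), none of which had the larger share part with the classes. Agr2 there had 54.7 CPM through shares and -511.1 within.

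**Figure D5:**
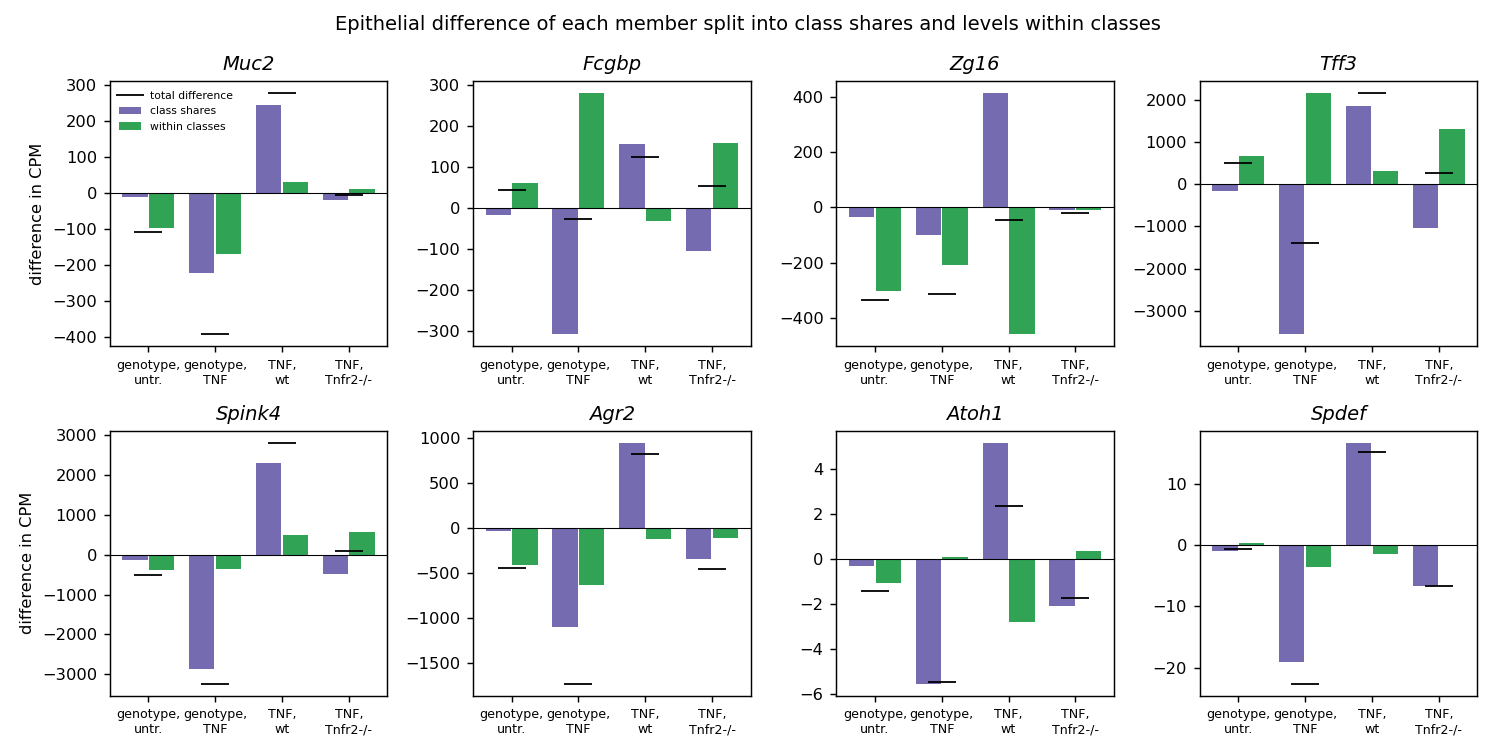
Epithelial difference of each member in CPM, split into class shares and levels within classes, for the 4 comparisons; the black tick is the sum of both bars. For genotype untreated the within-class bar is the longer one for 7 members, and for TNF in wildtype the share bar is, as in Muc2 with 245.8 against 32.8 CPM.

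Other genes of the pathway were read from lists that leave out the members. Over all genes, 3.59% were called lower and 2.42% higher for genotype untreated, and 6.37% and 5.04% for genotype with TNF. For TNF these shares were 1.08% and 2.54% in wildtype and 7.81% and 5.55% in Tnfr2-/- cultures. Within the Lyz1 class they were 1.84% and 2.58% for genotype untreated. Mucin glycosylation puts O-glycans on Muc2. Of 12 genes of its list that reached 20 CPM, 2 were called lower untreated (St6galnac6 and Slc35a1) and 0 higher. Their median was 0.08 beside 0.11 over all genes. Galnt7, Galnt1 and Galnt3, which start O-glycans, and C1galt1, which extends them, differed by 0.07, 0.57, 0.31 and 0.09. With TNF, 4 of 13 were lower and 1 higher in Tnfr2-/- cultures (median -0.31), and for TNF in wildtype 1 of 13 was called higher, Gcnt3, at 25.0, 74.4, 38.2 and 55.0 CPM, with a median of 0.46. Within the Lyz1 class 2 of 19 were lower untreated (St6galnac6 and Chst4) with a median of 0.20.

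Genes of folding and transport in the endoplasmic reticulum showed 0 of 22 calls for genotype untreated (median 0.04) and 0 of 24 for TNF in wildtype (median 0.21), and within the Lyz1 class 1 of 26 for genotype untreated, Kdelr3. With TNF, Creb3l1, Ern2 and Pdia5 were lower in Tnfr2-/- cultures and the chaperone Hspa5 was higher, with a median of -0.33 over 24. Hspa5 had 392.9, 511.9, 499.7 and 1130 CPM, while Sec61b had 817.4, 798.7, 749.2 and 518.5, Ssr4 815.9, 649.9, 594.8 and 442.3 and Hsp90b1 447.6, 515.9, 516.8 and 629.5. Over all epithelial cells, Hspa5 was thus highest in the library in which Agr2 was lowest. Within the Lyz1 class Hspa5 had 918.4, 900.5, 874.1 and 664.9 CPM, lowest in that library, on its 8 cells. TNF in Tnfr2-/- cultures called Hspa5 higher and Creb3l1 lower among 22 genes.

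Among 14 genes of secretory specification and Notch signalling, 4 were called higher in Tnfr2-/- cultures untreated (Foxa2, Sox4, Notch1 and Ascl2) and 0 lower, with a median of 0.46, and with TNF 2 of 14 were lower (Hes6 and Cdx1). Sox4 had 137.7, 418.8, 344.8 and 560.6 CPM. Hes1, the Notch target that represses Atoh1, had 118.7, 182.8, 188.1 and 186.9 CPM, and Klf4 226.7, 211.6, 185.5 and 261.6 CPM. Elf3, an epithelial ETS factor, had 114.2, 174.0, 116.9 and 317.4 CPM and was the 1 call for TNF in Tnfr2-/- cultures among 15. For TNF in wildtype Sox4 was the 1 call among 12.

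Genes of granule release gave 1 of 11 lower untreated (Nlrp6), 1 of 13 lower and 1 higher with TNF (Rab3d and Stx3) and 0 of 11 for TNF in Tnfr2-/- cultures. The SNARE protein Vamp8 had 222.5, 205.8, 189.9 and 280.1 CPM and Rab27b 69.0, 81.1, 54.4 and 53.7 CPM. Slc12a2, a cotransporter of sodium, potassium and chloride, had 445.7, 855.5, 845.1 and 745.1 CPM.

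Of 11 other secreted proteins of the mucus that reached the limit, 5 were lower untreated (Lypd8, Dmbt1, Klk1, Wfdc2 and Mptx1) and 1 higher (Itln1), with a median of -0.82, and 9 of 11 were lower with TNF, with a median of -2.16. Within the Lyz1 class, 3 of 10 were lower untreated (Klk1, Wfdc2 and Mptx1) and 1 higher (Itln1), with a median of -0.42, and Lypd8 was at 1084 CPM in wildtype and 1090 CPM in Tnfr2-/- cells. Absorptive cells were 319 (28.3%) of the epithelial cells in the wildtype untreated and 11 (1.08%) in the Tnfr2-/- untreated library, and their part in the epithelial differences was not tested. Lypd8, which keeps flagellated bacteria off the epithelium, had 5620, 2470, 674.6 and 904.1 CPM, Wfdc2 949.8, 625.0, 451.2 and 656.5 and Spink1 331.6, 539.9, 187.7 and 264.6. TNF in wildtype gave 3 higher (Ang4, Itln1 and Sval1) and 1 lower (Lypd8), and TNF in Tnfr2-/- cultures 2 of 10 lower (Reg4 and Lyz1) and 1 higher (Dmbt1).

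The goblet cell list of the study, taken from a colon atlas, had few other members at this level. AW112010 was called higher untreated among 5, with 38.5, 277.2, 330.7 and 430.3 CPM, and with TNF 3 of 7 were lower (Spink1, Rep15 and Sval1). TNF in wildtype called 5 of 7 higher and TNF in Tnfr2-/- cultures 0 of 5. Of the atlas list of deep secretory cells, 7 of 28 were lower untreated (median -0.30) and 22 of 34 with TNF (median -1.36), where Ndrg1 was the 1 higher, at 43.0, 151.1, 67.2 and 499.6 CPM. TNF in wildtype called 8 of 35 higher, and TNF in Tnfr2-/- cultures called 4 of 23 lower and 3 higher. Sval1 had 548.1, 1191, 323.5 and 265.4 CPM and Reg4 185.6, 213.5, 111.7 and 32.3 CPM, in an order like that of Spdef. Within the Lyz1 class, TNF in wildtype called 5 of 42 genes of this list lower and 2 higher (0.468% and 2.58% of all genes). Reg4 was at 2605 CPM untreated and 1021 CPM with TNF in the wildtype cells of that class (-1.35). For genotype untreated, 7 of 41 were lower in the class and 1 higher (1.84% and 2.58% of all genes).

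The genes whose levels went most nearly with Muc2 over 27 sums of class and library were Tpsg1 (Pearson r = 0.95 of log2(CPM + 1)), Ccl6 (0.93), Best2 (0.92), B4galnt2 (0.91) and Cmtm8 (0.90). For Zg16 they were Tpsg1 (0.90), B4galnt2 (0.89), Hsd11b2 (0.89), Ccl6 (0.88) and Cldn15 (0.87), so that 3 of 5 were the same as for Muc2. For Spdef they were Bcas1 (0.96), Reg4 (0.95), Creb3l4 (0.93), Sval1 (0.93) and Clps (0.92), none of which was among those of Muc2 or Zg16. Among the members, Fcgbp and Tff3 were most alike (0.95), Atoh1 and Spdef had 0.94, Muc2 had 0.88 with Zg16 and 0.78 with Fcgbp, and Zg16 and Tff3 were least alike (0.75). Over the 19 epithelial sums alone, Muc2 and Spink4 were most alike (0.97) and Fcgbp and Agr2 least alike (0.66), so the order of the pairs depends on whether the mesenchymal sums are included. The sums share libraries, classes and depth, so these values describe the table and carry no test.

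In mesenchymal cells Muc2 was at 1.01, 3.13, 5.97 and 16.3 CPM, the last against 24.9 CPM in the epithelial cells of that library. Tff3 was at 14.9, 13.9, 39.0 and 11.95 CPM in them, and Atoh1 at 0 or 1 UMI in all 4 libraries. The Tnfr2-/- values of Muc2 rested on 13 and 78 UMIs. In the class Mesenchyme-Ptges of Tnfr2-/- cultures, Muc2 made up 41.9% and 40.6% of the member UMIs, and there were 0.62 and 0.73 Tff3 UMIs for 1 Muc2 UMI, against 4.51 in wildtype TNF cells of that class. In the epithelial cells of the same Tnfr2-/- libraries that ratio was 52.5 and 73.4.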

How the data were processed

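RNA of 4 libraries (1 culture each) was analysed. The deposited counts were UMIs per gene and cell, made by the authors with Cell Ranger 5.0.0 and mm10 per the submitters' processing notes. Per the study's methods, the authors then removed cells under 100 UMIs and doublets of epithelial and mesenchymal cells, and clustered with monocle3; their deposited classes were used as given. Their size factors (a score per cell) and plotting coordinates were not used. UMIs were summed per class and library (50330964, 41354595, 50648198 and 39776200 over epithelial cells) and scaled to CPM. With 1 library per group no test was made: Poisson and Clopper-Pearson intervals at 95% cover counting error only, and a sum of 0 allows 3 counts. Differences within classes needed 20 cells in both libraries, and the split into shares and levels set no such minimum. Thinning to 5000 UMIs left out 405 cells. Scrublet (scanpy 1.11.5, expected rate 0.06) called 47 cells. TMM factors came from edgeR 4.0.16, with no edgeR test. Python 3.11.15, pandas 2.3.3 and scipy 1.17.1 were used, and the counting was tested on simulated data. Besides the members, the text names the deleted gene, the 4 genes with the highest mean CPM of each list, called list genes and the 5 genes most like Muc2, Zg16 and Spdef. Members, lists and rules were chosen with earlier results of these data known. Alternatives were other pseudocounts, scalings, cell filters and weights. The calls of the granule release list for TNF in wildtype are not reported here.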

Additional observations from a re-analysis of the deposited data

Results flagged for a closer look

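For 4 members the TNF difference over epithelial cells had opposite signs in the 2 genotypes, in each case beyond the counting intervals. Muc2 differed by 1.60 in wildtype and by -0.25 in Tnfr2-/- cultures, where the median of all genes tested was itself -0.12. Agr2 differed by 0.84 in wildtype and by -1.93 in Tnfr2-/- cultures. For Atoh1 the values were 0.53 and -0.86, on 44 to 271 UMIs per library. For Spdef they were 1.18 and -1.31. With 1 library on each side, these differences between the genotypes were not tested.

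The comparisons used no cells without a class. Scrublet called 25 of these 35 cells (71.4%) as doublets, against 0.764% of all cells. The 31 cells without a class in the wildtype untreated library had a median of 66566 UMIs. They had Muc2 at 245.0 CPM [224.3 to 267.2], against 1.01 CPM in the mesenchymal cells of that library. Their 5 epithelial markers summed to 7388 CPM and their 10 mesenchymal markers to 5876 CPM. The part of doublets in this Muc2 level was not tested.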

How the results depend on the processing

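No paired analysis was possible because each group had 1 library. Of 512 values that 12 settings gave for 48 member differences, 9 turned sign, none of them a called one, and 15 changed side of the 2-fold limit or of the minimum. Members called higher with TNF in wildtype were 5, and 3 (Muc2, Tff3 and Spink4) with a pseudocount of 10 CPM or with cells thinned to 5000 UMIs. Members called lower with TNF in Tnfr2-/- cultures were 2, and 1 (Agr2) with a pseudocount of 10 CPM, TMM factors, median-of-ratios factors or without the 5 cells with most Zg16. Without these cells, members called lower with TNF in the wildtype Lyz1 class were 0 in place of 1. Members with the larger share part for genotype untreated were 1, and 0 with shares of cells and 3 with member-rich cells in place of classes, and for genotype with TNF 7 and 3. The Lyz1 class was 9.54% of wildtype TNF epithelial cells, 12.1% without the Ang4 class and 14.4% without Progenitor.3 as well. Fcgbp for genotype with TNF was -0.17, and 0.18 with the mean over cells and 0.43 with thinning. Tff3 there was -0.82, and -1.35 and called with the mean over cells. The settings on the 5 Zg16 cells, member-rich cells and Progenitor.3 were chosen after seeing the data. Counting error was widest for Atoh1 and for the 8 cells of the Lyz1 class in the Tnfr2-/- TNF library.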

Other observations

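Within Progenitor.3, the class with 6364 to 9570 UMIs per cell at the median, Muc2 and Spink4 were higher in wildtype than in Tnfr2-/- untreated cells. Muc2 had 171.8 CPM [151.2 to 194.3] and 67.8 [56.0 to 81.4] in the wildtype libraries and 5.65 [1.17 to 16.5] on 3 UMIs in Tnfr2-/- untreated cells, and Spink4 had 2212, 1759 and 126.3 CPM in the same libraries. Of the Muc2 UMIs of the class, 8 of 95 wildtype untreated cells held 88.1% and 12 of 148 wildtype TNF cells held 62.1%. Atoh1 (5.45, 1.17 and 3.77 CPM) and Spdef (8.86, 5.85 and 5.65 CPM) rested on 2 to 13 UMIs, and their intervals overlapped among these 3 libraries. The 11 Tnfr2-/- TNF cells were too few for a comparison.

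Enteroendocrine cells, which also arise from secretory progenitors, had 18 to 33 cells per library. Tff3 was at 228.7, 471.3, 129.6 and 662.4 CPM in them, and Muc2 at no more than 1 UMI in any library. Absorptive cells of wildtype untreated cultures (319 cells) had Zg16 in 16.3% of cells, at 25.9 CPM [23.5 to 28.5], and Muc2 in 4.70%, at 4.42 CPM [3.45 to 5.58]. Mesenchymal cells of that library, which should lack both, had 2.47 and 1.01 CPM, at a median of 22642.5 UMIs per cell against 40871 in absorptive cells. After thinning to 5000 UMIs, Zg16 was found in 17 of 317 absorptive (5.36%) and 16 of 1417 mesenchymal cells (1.13%). Muc2 was found in 3 (0.95%) and 10 (0.71%), with overlapping intervals. The part of background in these values was not tested.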
